A study of Mus musculus with 13 samples.

Results

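The 10 genes described here encode the troponins and the main muscle tropomyosins, and were taken by name from a table of 21868 genes. They are Tnni1 and Tnni2 (slow and fast skeletal troponin I), Tnnt1, Tnnt3 and Tnnt2 (slow skeletal, fast skeletal and cardiac troponin T), Tnnc1 and Tnnc2 (slow/cardiac and fast troponin C), Tpm1, Tpm2 and Tpm3 (alpha-, beta- and slow-type tropomyosin). All 10 were found in the table, and all 10 were among the 12303 genes with a mean normalized count of at least 10 that were tested. RNA was sequenced from whole gastrocnemius, a calf muscle made mostly of fast fibers, of 13 obese male C57BL/6N mice. The mice entered the study at 7 weeks of age, acclimatized for 1 week, ate a diet with 60 kcal% fat for 15 to 17 weeks and were then moved to chow, so all 3 groups share the diet-induced obesity and the change of diet. For 3 weeks they received vehicle (phosphate-buffered saline, labelled Vehicle+placebo, n = 5, mice 1 to 5), semaglutide at 30 nM/kg/day by intraperitoneal injection (n = 5, mice 13 to 17) or the same semaglutide dose together with ketone ester, dissolved at 0.114 g/mL in the water they drank (n = 3, mice 19, 21 and 22). The group given semaglutide alone is labelled Semaglutide+placebo. Semaglutide is a GLP-1 receptor agonist used to treat obesity, and ketone esters are drinkable compounds that raise blood ketones. There was no group given ketone ester without semaglutide, so an effect of the ester alone could not be compared.

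The thin filament of striated muscle is a cable of actin with tropomyosin lying along it and a troponin complex at regular intervals. Troponin C binds calcium, troponin I holds the filament in its inhibited state, and troponin T ties the complex to tropomyosin, so that calcium release moves tropomyosin and lets myosin bind. Each subunit has a slow form, shared in part with the heart, and a fast form, and adult fibers usually express one set or the other. Tpm1 and Tpm2 also serve smooth muscle and other cells through other isoforms, and a gene-level count adds all isoforms of a gene together. In whole muscle RNA, fewer cells of a type and less RNA per cell cannot be told apart.

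Libraries held between 15319471 and 23498162 reads on genes, and every member other than Tnnt2 had at least 371 normalized counts in every mouse. The defining markers of skeletal muscle (Acta1, Ckm, Myh4, Mb and Ttn) summed to between 1310461 and 3241385 normalized counts per mouse. Of the 5 cardiac markers, Myl7 and Nppa were at 0 in most mice, Tnni3, the cardiac troponin I, reached at most 4.82, and only Myh6 (22.2 to 92.7) passed the filter. Semaglutide-treated mouse 13 lay nearer to the vehicle mice than the other 4 semaglutide-treated mice did for Tpm1 and Tnnc2, and leaving it out raised the number of genes past the threshold between semaglutide and vehicle from 3084 to 4450. For Tpm1 and Tnnc2 the fold changes between semaglutide and vehicle are therefore given with and without mouse 13. Other fold changes are from all mice unless stated.

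Positions are those of the GENCODE vM21 annotation of GRCm38 (mm10). Tnni1 (chr1:135779434-135810989, plus strand) and Tnnt2 (chr1:135836354-135852260, plus strand) are neighbors 25.4 kb apart, with 1 coding gene between them. Tnni2 (chr7:142441808-142444410, plus strand) and Tnnt3 (chr7:142498836-142516009, plus strand) are 54.4 kb apart, again with 1 coding gene between them. Tnnt1 (chr7:4504570-4516382, minus strand) starts the third pair and ends 1.92 kb before Tnni3. The unpaired members are Tnnc1 (chr14:31208312-31211729, plus strand), Tnnc2 (chr2:164777161-164779967, minus strand), Tpm1 (chr9:67022590-67049406, minus strand), Tpm2 (chr4:43514711-43523765, minus strand) and Tpm3 (chr3:90072649-90100902, plus strand).

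Sequences before 3 of the start sites follow. The bases are those of the 250 before the RefSeq start that lie outside every exon in GENCODE, given 5′ to 3′ on the strand of the gene (RefSeq, GRCm38.p6), and capitals mark E-boxes (CANNTG, the recognition letters of MyoD-type factors), the MCAT motif (CATTCC on either strand) and TATAA on the sense strand. Slow troponin C (Tnnc1) and fast troponin C (Tnnc2) are shown because they are the slow and fast forms of the calcium-binding subunit, and Tnni1 because its level followed that of Tnnc1 from mouse to mouse.
Tnnc1, chr14:31208062-31208311, plus strand: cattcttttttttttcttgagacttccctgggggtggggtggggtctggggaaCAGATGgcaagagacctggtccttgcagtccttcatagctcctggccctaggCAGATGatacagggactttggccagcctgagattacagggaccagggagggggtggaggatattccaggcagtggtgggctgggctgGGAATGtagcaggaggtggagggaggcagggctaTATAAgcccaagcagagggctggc
Tnnc2, chr2:164779742-164779867, minus strand: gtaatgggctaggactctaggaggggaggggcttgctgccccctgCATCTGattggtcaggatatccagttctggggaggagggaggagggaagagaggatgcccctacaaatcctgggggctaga
Tnni1, chr1:135799171-135799401, plus strand: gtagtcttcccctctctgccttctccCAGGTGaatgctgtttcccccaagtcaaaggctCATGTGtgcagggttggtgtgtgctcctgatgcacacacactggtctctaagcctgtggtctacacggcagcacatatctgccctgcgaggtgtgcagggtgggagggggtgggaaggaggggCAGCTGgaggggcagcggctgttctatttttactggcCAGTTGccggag
In the full window of 250 bases, Tnnc1 held 2 E-boxes, an MCAT motif at -58 and TATAA at -24 from the start, Tnnc2 held 2 E-boxes (at -183 and -88) and neither other motif, and Tnni1 held 4 E-boxes and neither other motif. Of all 32851 RefSeq windows of 250 bases, 66.2% held an E-box, 12.6% an MCAT motif and 16.0% TATAA in the same sense. These matches describe letters only. Windows were found for 8 of the 10 members (not for Tnni2 and Tnnt3).

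The fast set dominated gastrocnemius in every mouse. Per kilobase of coding transcript, vehicle mice had a mean of 310086 ± 25530 (SD, n = 5) normalized counts of Tnnt3, 176535 ± 6983 of Tnnc2, 171736 ± 16415 of Tpm1, 171620 ± 12676 of Tnni2 and 35312 ± 7103 of Tpm2. On the same per-kilobase scale the slow members were Tnnt1 at 2501 ± 1226, Tnnc1 at 1955 ± 952, Tnni1 at 1135 ± 590 and Tpm3 at 1041 ± 428, and the cardiac Tnnt2 was lowest at 44.5 ± 11.7. By this length the order of Tnnc2, Tpm1 and Tnni2 varied among the vehicle mice, as did that of Tnni1 and Tpm3 (Tnni1 higher in 3 of 5). With exon-union lengths (all exons of a gene merged) the first 3 genes did not overlap in vehicle mice. Tnnc2 then ran from 145190 to 161008, Tnni2 from 77593 to 92516 and Tpm1 from 37616 to 47874. Their near tie therefore rests on the length chosen. By coding transcript length the ranges of Tnnt1 and Tnnc1 overlapped between vehicle mice. Within each of these mice Tnnt1 was then the higher, in 5 of 5, by 1.25- to 1.34-fold. Exon-union lengths reversed the order of the vehicle means, at 1354 for Tnnc1 and 1060 for Tnnt1 per kilobase. The order of Tnnt1 and Tnnc1 therefore also rests on the length chosen. The slow form made up 0.668% ± 0.355 of troponin I, 0.813% ± 0.412 of troponin T and 1.10% ± 0.531 of troponin C in vehicle mice (percent of per-kilobase levels). In semaglutide-treated mice these shares were 0.614% ± 0.276, 0.595% ± 0.263 and 1.14% ± 0.587 (n = 5), and with ketone ester 0.422% ± 0.120, 0.577% ± 0.192 and 0.640% ± 0.149 (n = 3). The ranges of all 3 groups overlapped for each subunit. With exon-union lengths instead, the vehicle shares were 0.386%, 0.540% and 0.869%.

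**Figure D1:**
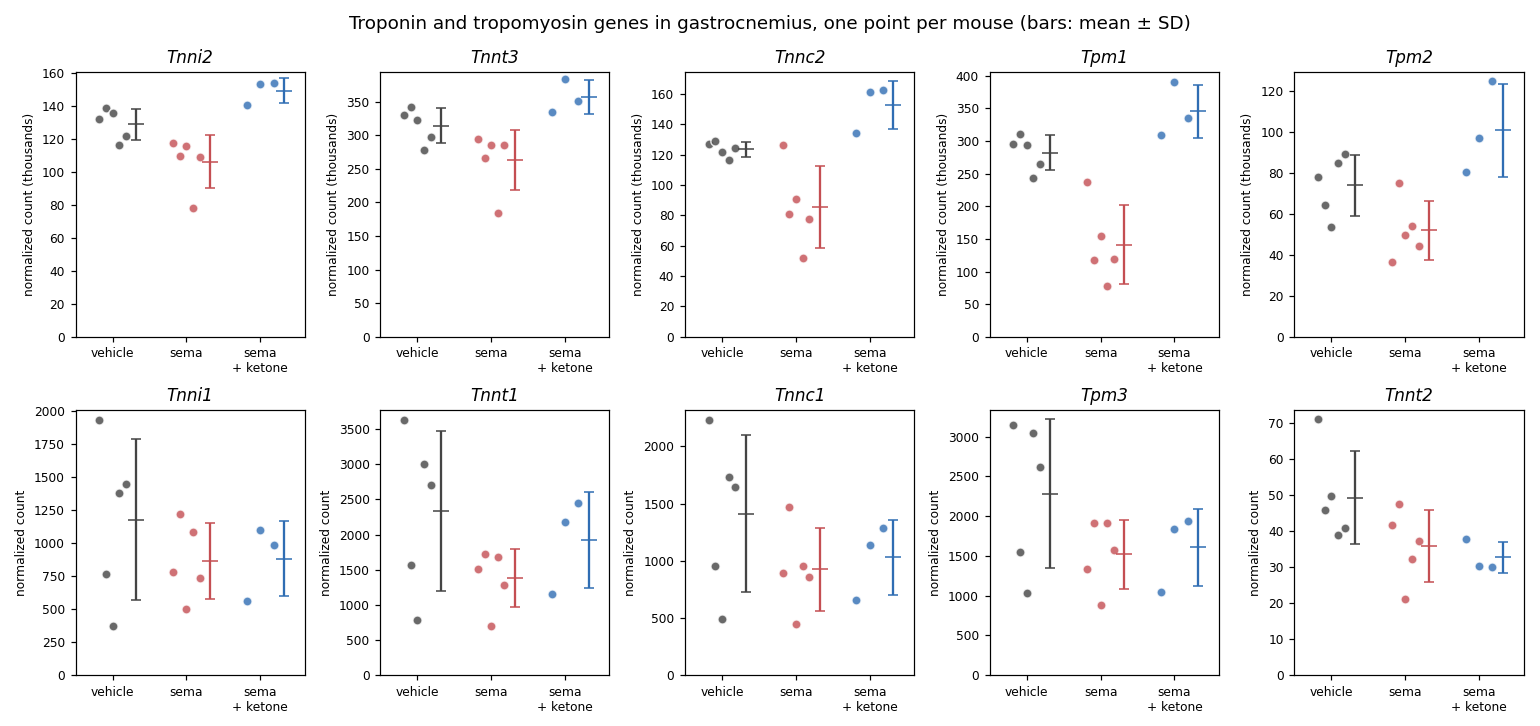
Normalized count (vertical axis, scaled by 1000 in the upper row) of each of the 10 genes in each mouse, by treatment group, with mean ± SD beside the points. The 5 fast or shared genes in the upper row were above every semaglutide-treated mouse in all 3 ketone ester mice, whereas the groups overlapped for the slow genes in the lower row.

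With semaglutide 2 of the 10 members fell relative to vehicle, and both belong to the fast set. Tpm1, the tropomyosin of fast fibers and heart, fell to 0.469 of its vehicle level (both on the fitted scale) and Tnnc2, the calcium sensor of fast fibers, fell to 0.666 of its vehicle level. No member rose, also at an unadjusted p under 0.05 (0 of 10) and with edgeR or DESeq2 (0 of 10 each). Across all genes tested, 13.2% fell and 11.9% rose at the same threshold (adjusted p under 0.05, limma on log2(normalized count + 1) with Benjamini-Hochberg adjustment over 12303 genes), so 2 of 10 is close to the background share. With columns scaled to equal totals instead, the median of all genes shifted to 0.17 and 77.8% of the called genes were higher, against 47.3% by the authors' scaling, and the same 2 members were called. The median log2 fold change was -0.52 over the 10 members, -0.44 over the 4 fast members (Tnni2, Tnnt3, Tnnc2 and Tpm1), -0.52 over the 4 slow members (Tnni1, Tnnt1, Tnnc1 and Tpm3) and 0.00 over all genes. Each limma p-value sets a difference of groups against the spread between mice of the same group, estimated with help from all genes.

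Tpm1 had normalized counts of 296063, 310462, 294563, 243941 and 264920 in vehicle mice 1 to 5. In semaglutide-treated mice 13 to 17 the counts were 237901, 117661, 153921, 77882 and 118796. The 2 groups did not overlap, though mouse 13 came close to the lowest vehicle mouse. Groups separated this way, with semaglutide lower, for 7.45% of all genes, and Tpm1 was the 1 member that did so. The log2 fold change was -1.09 (SE 0.23, adjusted p = 0.0060, limma). It was -1.30 without mouse 13 and -0.90 without mouse 16, the lowest, and the call held whichever of the 13 mice was left out.

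Tnnc2 stood at 126802, 128807, 122018, 116152 and 124092 in vehicle mice 1 to 5, a spread of 1.11-fold. In semaglutide-treated mice 13 to 17 it stood at 126392, 81058, 91099, 52072 and 77286. Mouse 13 lay inside the vehicle range and the other 4 lay below it. Its log2 fold change was -0.59 (SE 0.18, adjusted p = 0.033, limma) with mouse 13 and -0.74 (adjusted p = 0.0021) without it. The call was fragile: leaving out 1 mouse at a time lost it 7 times in 13, including every time a vehicle mouse was left out, with adjusted p no higher than 0.073, and it was also lost with no filter on low values and with only these 2 groups in the fit. An exon stretch of 592 bases of Tnnc2 overlaps Ube2c on the opposite strand, and Ube2c had a mean of 171 normalized counts, far below Tnnc2.

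The remaining fast troponins and Tpm2 were lower on average and did not pass the threshold. Tnni2 averaged 128715 ± 9507 (SD, n = 5) in vehicle and 105944 ± 16120 in semaglutide-treated mice, a log2 fold change of -0.29 (SE 0.11, adjusted p = 0.075). For Tnnt3 the averages were 314117 ± 25861 and 263406 ± 45006, a log2 fold change of -0.27 (SE 0.13, adjusted p = 0.13) whose sign turned under quantile normalization (0.02). Beta-tropomyosin, Tpm2, averaged 74084 ± 14902 and 52008 ± 14481, a log2 fold change of -0.53 (SE 0.20, adjusted p = 0.076). Tnni2 passed without mouse 13 (adjusted p = 0.042), and DESeq2 on the recovered reads called both Tnni2 and Tpm2.

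Slow members did not pass the threshold either (0 of 4 by limma, edgeR and DESeq2, and 0 of 4 at an unadjusted p under 0.05), and their intervals were wide. The log2 fold change of semaglutide over vehicle was -0.30 for Tnni1 (95% interval -1.20 to 0.59), -0.64 for Tnnt1 (-1.52 to 0.24), -0.52 for Tnnc1 (-1.41 to 0.37) and -0.52 for Tpm3 (-1.23 to 0.20). A decrease as large as that of Tpm1 lies inside each of these intervals, so the slow forms are not shown to be unaffected. Cardiac troponin T, Tnnt2, a form also made by immature muscle, ran from 38.8 to 70.9 normalized counts in vehicle and from 21.1 to 47.3 in semaglutide-treated mice, a log2 fold change of -0.46 (SE 0.21, adjusted p = 0.13).

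When ketone ester was added to semaglutide, 5 of the 10 members rose (of them Tnni2 turned sign under quantile normalization, at -0.02), against 9.09% of all genes that rose and 9.3% that fell in this comparison. With equal totals the median of all genes shifted to -0.24 and 14.6% of the called genes were higher, against 49.4% by the authors' scaling. The 5 were the whole fast set (Tpm1, Tnnc2, Tnni2 and Tnnt3) and Tpm2, with increases from 1.37-fold for Tnnt3 to 2.61-fold for Tpm1. In each of the 5, all 3 ketone ester mice lay above all 5 semaglutide-treated mice, a separation seen for 9.96% of all genes. None of the 4 slow members passed by limma, edgeR or DESeq2, or at an unadjusted p under 0.05. The median log2 fold change was 0.70 over the 4 fast members, 0.14 over the 4 slow members and 0.00 over all genes. The semaglutide-treated mice are shared with the first comparison, so the results of these comparisons are not independent of each other.

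Tpm1 had 309697, 390233 and 335809 normalized counts in ketone ester mice 19, 21 and 22, a log2 fold change over semaglutide of 1.38 (SE 0.27, adjusted p = 0.0057). Tnnc2 had 134190, 161481 and 162376 in the same mice, a log2 fold change of 0.89 (SE 0.21, adjusted p = 0.014). All 6 of these values lie above the highest semaglutide-treated mouse, by a wide margin for Tpm1 and a narrow one for Tnnc2 in mouse 19.

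Fast troponin I, Tnni2, the inhibitory subunit of fast fibers, had 132104, 138497, 135356, 116157 and 121463 in vehicle mice 1 to 5. It had 117432, 109716, 115717, 77864 and 108990 in semaglutide-treated mice 13 to 17 and 140120, 152803 and 153734 with ketone ester. Mouse 16 stood apart below the other semaglutide-treated mice, and the ketone ester mice stood above every mouse of the other groups. The log2 fold change of ketone ester plus semaglutide over semaglutide was 0.51 (SE 0.13, adjusted p = 0.020), 0.40 without mouse 16, and -0.02 under quantile normalization.

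Fast troponin T, Tnnt3, which anchors the complex to tropomyosin, had 330602, 341480, 322828, 277897 and 297778 in vehicle mice 1 to 5. It had 294724, 266638, 285361, 184992 and 285317 in semaglutide-treated mice 13 to 17 and 334825, 384538 and 350975 with ketone ester. The log2 fold change of 0.46 (SE 0.14, adjusted p = 0.046) had the highest adjusted p of the 5 calls, and it was lost 11 times in 13 when 1 mouse at a time was left out, keeping its call without mouse 13 and without mouse 16. It was also lost with equal totals (0.22).

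Tpm2, which pairs with either other muscle tropomyosin in the filament, had 78250, 64368, 53498, 84783 and 89520 in vehicle mice 1 to 5. It had 36398, 74980, 49773, 54408 and 44479 in semaglutide-treated mice 13 to 17 and 80377, 97211 and 125135 with ketone ester. Here semaglutide-treated mouse 13 was the lowest of its group, the reverse of its place for Tpm1 and Tnnc2, and mouse 14 was the highest. For Tpm2 the log2 fold change was 0.97 (SE 0.23, adjusted p = 0.015). With 3 mice in the ketone ester group the calls leaned on mice 21 and 22. Without mouse 19, 4 members were still called (Tnni2, Tnnc2, Tpm1 and Tpm2). Without mouse 21, or without mouse 22, Tpm1 was the 1 member still called, and adjusted p for Tnni2, Tnnc2 and Tpm2 then lay between 0.053 and 0.082. Tpm1 was likewise the 1 member called under quantile normalization and with only these 2 groups in the fit.

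**Figure D2:**
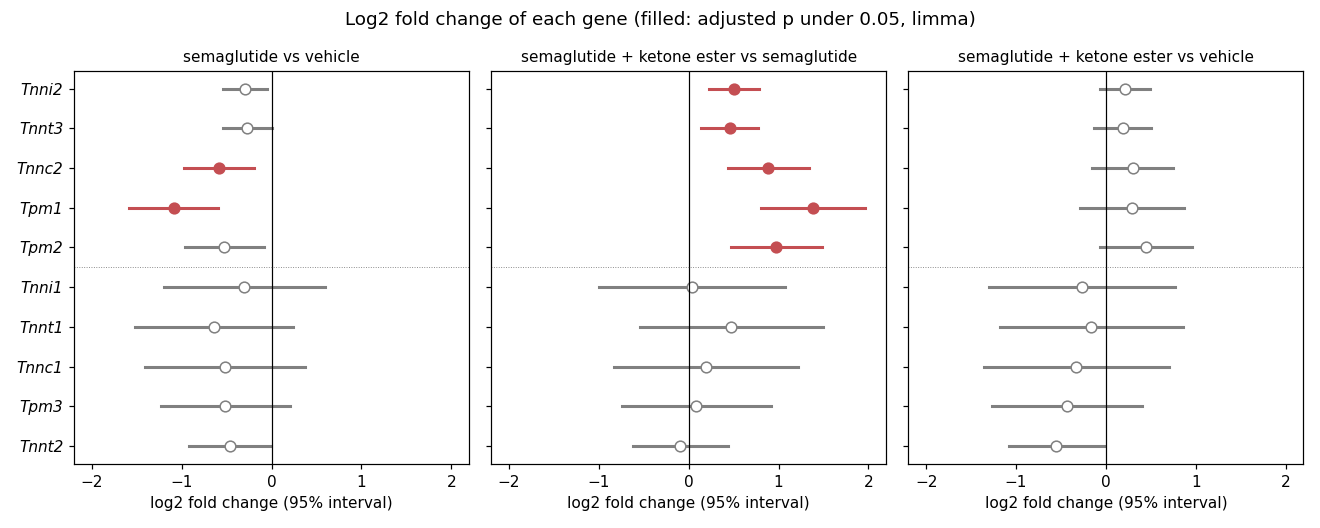
Log2 fold change (horizontal axis, with 95% interval) of each gene in each of the 3 comparisons, with filled points for adjusted p under 0.05. The 2 filled points of the first panel are Tnnc2 and Tpm1, the 5 filled points of the second are the fast members and Tpm2, and the intervals of the slow members cross 0 in every panel.

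Slow members had wide intervals in this comparison too. It gave a log2 fold change of 0.04 for Tnni1 (95% interval -0.99 to 1.07), 0.47 for Tnnt1 (-0.54 to 1.49), 0.19 for Tnnc1 (-0.83 to 1.22) and 0.08 for Tpm3 (-0.75 to 0.91), and for Tnni1, Tnnc1 and Tpm3 the sign turned when columns were scaled to equal totals (-0.20, -0.04 and -0.15). For Tnnt2 it was -0.09 (-0.62 to 0.44). The intervals of all 4 slow members include the increase seen in Tnnc2 (0.89). The larger increase of Tpm1 (1.38) lies inside the interval of Tnnt1 and above those of Tnni1, Tnnc1 and Tpm3. An interval of 1 gene does not compare 2 genes, and a difference in response between slow and fast forms was not tested.

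Ketone ester plus semaglutide against vehicle moved none of the 10 members past the threshold by limma, where 0.236% of all genes passed. At an unadjusted p under 0.05 the count was 1 of 10, against 10.5% of all genes, and the gene was Tnnt2, with a log2 fold change of -0.55 (SE 0.24, adjusted p = 0.46) and all 3 ketone ester mice (30.0, 30.2 and 37.7) below the lowest vehicle mouse (38.8), a separation in this direction seen for 5.88% of all genes. edgeR and DESeq2 on the recovered reads also called 0 of 10. The fast members were on average above vehicle, with log2 fold changes of 0.21 for Tnni2, 0.19 for Tnnt3, 0.30 for Tnnc2 and 0.29 for Tpm1, and every interval included 0. For Tnni2 the sign turned under quantile normalization (-0.09). By normalized count, all 3 ketone ester mice lay above every vehicle mouse for Tnni2 (at least 140120 against at most 138497) and Tnnc2 (at least 134190 against at most 128807). The share of all genes separated in this upward direction was not counted. Together the 10 genes took 4.81% ± 0.210 of all reads on genes in vehicle mice (SD, n = 5), 3.77% ± 0.539 in semaglutide-treated mice (n = 5) and 5.49% ± 0.374 with ketone ester (n = 3). The ketone ester mice (5.11% to 5.86%) lay above all other mice, while vehicle (4.47% to 5.00%) and semaglutide (3.04% to 4.55%) overlapped by a little.

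Ratios between members of the fast set within a mouse do not depend on the scaling between libraries. Tnni2 and Tnnt3, the inhibitory and tropomyosin-binding subunits, kept nearly the same ratio in all groups: log2 Tnni2 minus log2 Tnnt3 averaged -1.29 ± 0.03 in vehicle (SD, n = 5), -1.31 ± 0.05 in semaglutide-treated (n = 5) and -1.26 ± 0.07 in ketone ester mice (n = 3). Tpm1 differed from both. Log2 Tpm1 minus log2 Tnnt3 ran from -0.19 to -0.13 in vehicle mice, and was -0.31, -1.18, -0.89, -1.25 and -1.26 in semaglutide-treated mice 13 to 17. With ketone ester it was -0.11, 0.02 and -0.06, so the 3 groups did not overlap. Tnnc2 minus Tnni2 ran from -0.15 to 0.03 in vehicle, was 0.11 in semaglutide-treated mouse 13 and -0.58 to -0.35 in the other 4, and ran from -0.06 to 0.08 with ketone ester. These pairs were picked after their values were seen and carry no test.

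By coding transcript length the tropomyosins were mostly Tpm1, and less so by exon-union length. With exon-union lengths Tpm1 was 62.8% ± 6.71 in vehicle, 53.2% ± 14.4 in semaglutide-treated and 60.6% ± 5.33 in ketone ester mice. Tpm2 was then 36.6% ± 6.53, 46.2% ± 14.2 and 39.1% ± 5.30 in the same order. In semaglutide-treated mice Tpm1 fell as low as 38.7% and Tpm2 reached 60.3% by that length. Per kilobase of coding transcript, Tpm1 was 82.4% ± 4.16 of the 3 tropomyosins in vehicle, 75.1% ± 10.2 in semaglutide-treated and 81.2% ± 3.49 in ketone ester mice, with overlapping ranges (63.9% to 89.0% in semaglutide-treated mice). Tpm3 was a small part in all groups, 0.504% ± 0.217 in vehicle, 0.692% ± 0.345 in semaglutide-treated and 0.280% ± 0.0626 in ketone ester mice. Its share was lower in every ketone ester mouse (0.211% to 0.333%) than in any semaglutide-treated mouse (0.341% to 1.18%), by a narrow margin. Vehicle mice (0.231% to 0.730%) overlapped both groups. Exon-union lengths gave the same separation (0.229% to 0.334% against 0.353% to 1.01%). This share was not tested.

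**Figure D3:**
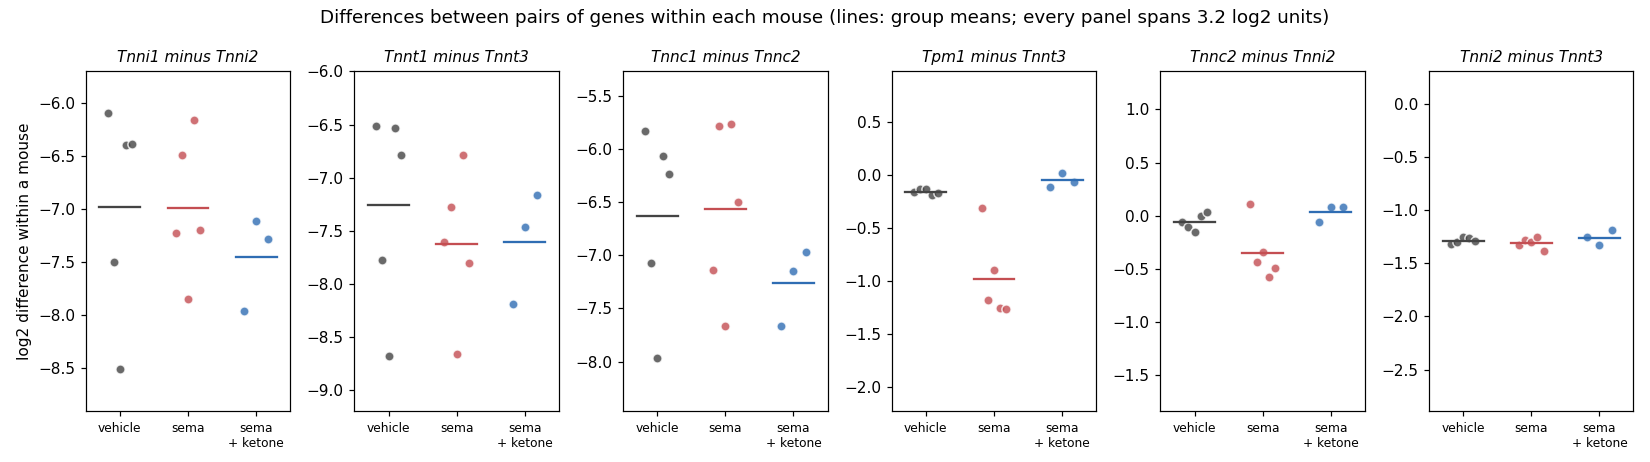
Log2 difference between 2 genes of the same mouse (vertical axis, every panel spanning the same number of log2 units), by group, with group means as lines. Slow minus fast differences in the first 3 panels overlap between groups, Tpm1 minus Tnnt3 is near -0.16 in vehicle and falls as low as -1.26 in semaglutide-treated mice, and Tnni2 minus Tnnt3 stays near -1.3 throughout.

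The slow-to-fast balance within each subunit did not separate the groups. Log2 Tnni1 minus log2 Tnni2 averaged -6.98 ± 1.01 in vehicle, -6.99 ± 0.66 in semaglutide-treated and -7.46 ± 0.45 in ketone ester mice. For troponin T (Tnnt1 minus Tnnt3) the averages were -7.26 ± 0.95, -7.62 ± 0.70 and -7.61 ± 0.52. For troponin C (Tnnc1 minus Tnnc2) they were -6.63 ± 0.88, -6.57 ± 0.83 and -7.26 ± 0.36. Groups overlapped in all 9 of these comparisons.

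What set the slow members apart was their spread between mice of the same group. Their residual SD on the log2 scale was 0.72 for Tnni1, 0.71 for Tnnc1, 0.71 for Tnnt1 and 0.57 for Tpm3, against a median of 0.22 over all genes, and 9.24% of genes were at or above 0.57. The fast members had 0.17 (Tnni2), 0.20 (Tnnt3), 0.30 (Tnnc2) and 0.39 (Tpm1). Tnni1 ran from 371 to 1929 normalized counts in vehicle mice, 5.20-fold, from 501 to 1219 in semaglutide-treated mice and from 560 to 1100 with ketone ester. Tnnt1 ran from 787 to 3626, from 705 to 1724 and from 1149 to 2447 in the same order of groups, and Tnnc1 from 488 to 2229, from 449 to 1471 and from 661 to 1291. Tpm3 ran from 1038 to 3149, from 881 to 1916 and from 1051 to 1934. The same mice were high or low each time: vehicle mouse 1 was the highest of all 13 for the 4 slow genes, and vehicle mouse 3, semaglutide-treated mouse 15 and ketone ester mouse 19 were the lowest of their groups.

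**Figure D4:**
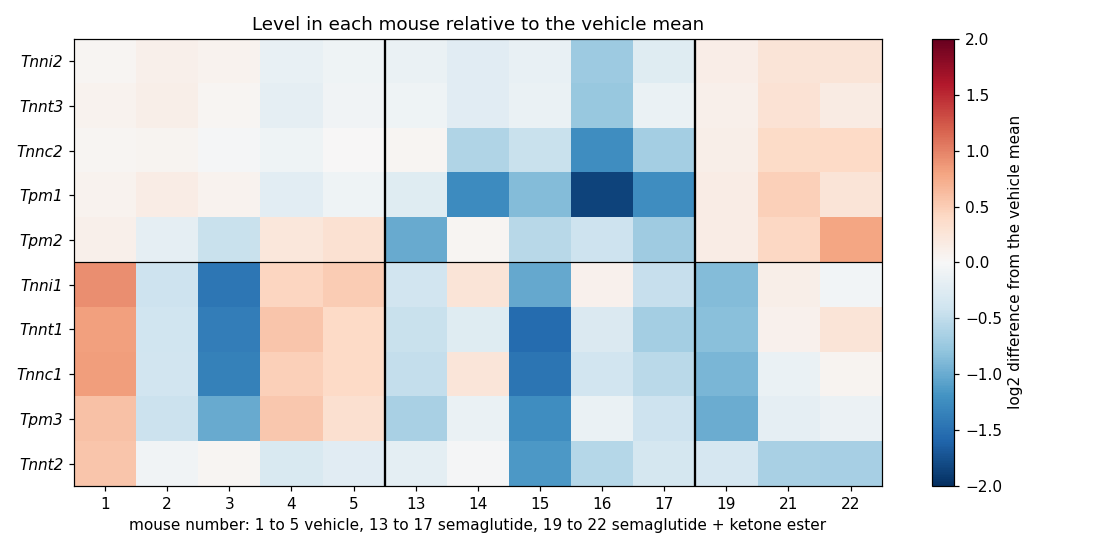
Log2 difference of each gene (rows) in each mouse (columns) from the vehicle mean, red above and blue below. The 4 slow genes share their columns of red and blue in all groups, with mouse 1 highest and mice 3 and 15 lowest, while Tnni2, Tnnt3, Tnnc2 and Tpm1 are palest in vehicle and darkest blue in mouse 16.

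Genes with the most similar pattern over the 13 mice were found by the mean absolute difference of z scores of log2(normalized count + 1). For Tnni1 the nearest 4 of all genes tested were Myh7 (slow myosin heavy chain, 0.185), Tnnc1 (0.200), Myh7b (0.219) and Tpm3 (0.262), so slow-fiber genes filled all 4 places. Tnni2 had Tnnt3 nearest (0.145), followed by Pmpca (0.186), Tst (0.215) and Timm29 (0.235). Tnnt2 had no close neighbor, the nearest being Trim26 (0.364), Nr4a2 (0.397), Timm8a1 (0.398) and Dnase1 (0.399), and none of the other 9 members was among them. Outside the rule that chose those 3 genes, and picked after the values were seen, Tpm1 lay closest to Pvalb (0.0868), the calcium buffer of fast fibers. Tpm3 lay closest to Tpm3-rs7 (0.171), a copy on chromosome 14 (chr14:113314608-113316754). Of the words of 59 bases (1 read) in Tpm3 transcripts, 21.7% also occur in Tpm3-rs7, and 65.4% of those of Tpm3-rs7 occur in Tpm3, so reads can be split between them and both values are uncertain. Log2 Tpm3-rs7 minus log2 Tpm3 averaged -2.02 in vehicle, -1.99 in semaglutide-treated and -2.02 in ketone ester mice. The other 9 members share at most 0.0978% of such words with other genes.

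Around the members, a few thin filament partners passed the threshold. Of all genes, 13.2% fell and 11.9% rose with semaglutide, and 9.09% rose and 9.3% fell with ketone ester. Of 12 partners tested, 2 fell with semaglutide, skeletal actin Acta1 (log2 fold change -0.46, SE 0.15, adjusted p = 0.042) and the cytoplasmic tropomyosin Tpm4 (-0.74, SE 0.11, adjusted p = 0.0011), and none rose (0 also at an unadjusted p under 0.05 and by edgeR or DESeq2). The list's median was -0.17. With ketone ester 3 rose and none fell: Acta1 (0.90, SE 0.17, adjusted p = 0.0058), the filament cap Tmod1 (0.54, SE 0.16, adjusted p = 0.034) and cardiac actin Actc1 (5.20, SE 0.96, adjusted p = 0.0047). Actc1, an actin of heart and immature muscle, ran from 2910 to 49782 in the ketone ester mice, from 185 to 2709 in semaglutide-treated and from 1064 to 1926 in vehicle mice. Nebulin, the ruler of the thin filament, was not called in any comparison.

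Of 12 slow fiber genes outside the member list, 1 rose with semaglutide (Sln, which restrains the calcium pump, log2 fold change 3.15, SE 0.47, adjusted p = 9.4e-04) and 2 fell (Myl3, a slow myosin light chain, -1.32, SE 0.34, adjusted p = 0.015, and Pln, another restraint on the pump, -0.74, SE 0.22, adjusted p = 0.029). With ketone ester limma called 1 slow fiber gene, Pln (0.82, SE 0.26, adjusted p = 0.043), while edgeR and DESeq2 each called 2, both higher. The medians were -0.14 and 0.05. Of all genes, 11.9% rose and 13.2% fell with semaglutide, and 9.09% rose with ketone ester, so the limma counts of this list are close to the background. Myh7 itself averaged 9726 ± 4794, 6522 ± 2395 and 8072 ± 3094 in vehicle, semaglutide-treated and ketone ester mice.

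Of 12 fast fiber genes, 4 fell and 1 rose with semaglutide, and 5 rose and 2 fell with ketone ester, with medians of -0.33 and 0.57. The shares of all genes were 13.2% lower and 11.9% higher with semaglutide, and 9.09% higher and 9.3% lower with ketone ester. Calsequestrin 1, the calcium store of the fast fiber (Casq1), changed by -1.57 (SE 0.40, adjusted p = 0.015) and 1.97 (SE 0.46, adjusted p = 0.014) on the log2 scale, and Pvalb by -1.36 (SE 0.31, adjusted p = 0.0092) and 1.88 (SE 0.36, adjusted p = 0.0056). Myosin genes Myh4 and Myl1 also fell and rose, and Mylpf rose with ketone ester. Actn3, the fast Z-disc actinin, went the other way in both comparisons, and Mylk2, the skeletal myosin light chain kinase, fell with ketone ester. Fast fiber genes therefore did not all move together. Of 12 regulators of fiber type, Myod1 rose (1.61, SE 0.24, adjusted p = 0.0011) and Mef2c fell (-0.90, SE 0.21, adjusted p = 0.011) with semaglutide, and Mef2c rose with ketone ester (0.85, SE 0.24, adjusted p = 0.031). For the regulators this is 1 of 12 in each case, close to the shares of all genes. None of these 4 lists had a gene called by limma between ketone ester plus semaglutide and vehicle (11 of their 48 genes at an unadjusted p under 0.05, where 10.5% of all genes passed, 1 by edgeR and 5 by DESeq2).

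Some markers of other cells also passed the threshold, and not all in the direction of the members. Of all genes, 13.2% fell and 11.9% rose with semaglutide, and 9.09% rose and 9.3% fell with ketone ester. Of 7 smooth muscle markers, a cell type that uses Tpm1 and Tpm2, 4 fell with semaglutide (largest Smtn, -0.84, and Acta2, -0.56) and 1 rose with ketone ester (Smtn, 0.96). Their sum ran from 3584 to 4751 in vehicle, 2209 to 3724 in semaglutide-treated and 3437 to 3937 in ketone ester mice, and none of the 7 was at 0. Fibroblast markers fell in 4 of 5 genes and rose in 3 of 5, with sums of 5719 to 13954, 4748 to 6768 and 7888 to 13517. Tendon markers fell in 4 of 5 and with ketone ester 2 rose (Tnmd and Kera) and 1 fell (Scx, -1.07, adjusted p = 0.035, limma), with sums of 1274 to 6819, 744 to 2704 and 3328 to 4169, and Kera reached 0 in semaglutide-treated mice. Adipocyte markers passed in 0 of 5 (limma, edgeR and DESeq2, and 1 of 5 at an unadjusted p under 0.05 with semaglutide), with sums of 3132 to 6562, 1659 to 14503 and 3236 to 3629, the highest in semaglutide-treated mouse 16, which was also lowest for Tpm1, Tnnc2, Tnni2 and Tnnt3. Vehicle mouse 1, highest for the slow members, had the lowest tendon sum of its group (1274). Of 6 tested markers of developing or denervated muscle, Chrna1 and Runx1 rose with semaglutide and Myh3 and Myh8 rose with ketone ester. Sums over all 8 listed markers were 4444 to 5508, 3611 to 5340 and 6124 to 6494. These sums are mostly Myh8, which averaged 3735 in vehicle, 2920 in semaglutide-treated and 4915 in ketone ester mice. The part of these cells in the changes of Tpm1 and Tpm2 was not tested.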

How the data were processed

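Total RNA of frozen gastrocnemius was sequenced by the authors with a stranded mRNA kit as paired reads of 59 bases and handled with DRAGEN on mm10. DESeq2 is named in the submitters' processing notes. The annotation and the strand setting of the counting are not given in the sources used here. The deposited table holds 1 signal value per gene and mouse, the authors' normalized count. Dividing each column by its smallest value gave whole reads for 100% of values (within 0.05), and depth was taken from these. Differences were tested with limma 3.58.1 (no trend) on log2(normalized count + 1), 3 groups in 1 fit, over 12303 genes with a mean of at least 10, Benjamini-Hochberg threshold 0.05. edgeR 4.0.16 and DESeq2 1.42.0 on the recovered reads, other scalings, filters and pseudocounts, and leaving out each mouse were alternatives. The scripts were tested on simulated data. All mice carry 1 batch label. Replicate libraries come from separately numbered mice. Members and lists were chosen with earlier results of these data known. The genes named are the 10 members, the 2 largest called changes of each list in each comparison, and the 4 genes nearest to Tnni1, Tnni2 and Tnnt2; other list genes named were chosen after their values were seen.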

Additional observations from a re-analysis of the deposited data

Results flagged for a closer look

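Among 30 groups of 5 mice (10 genes and 5 within-mouse differences), 2 held a mouse far from the rest, both times semaglutide-treated mouse 16 (chance marks about 1 in 20 groups of this kind). Tnni2 was at 16.2 there on the log2(normalized count + 1) scale, against 16.7 to 16.8 in the other 4 semaglutide-treated mice. Tnnt3 was at 17.5, with the other 4 no lower than 18.02 on the same scale.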

How the results depend on the processing

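The direction of Tpm1, Tnnc2 and Tpm2 held in both semaglutide comparisons under all settings, and Tpm1 was called in every one. Of 10 members, limma called 2 between semaglutide and vehicle. The count was 1 with no filter on low values and with only the 2 compared groups fitted (Tpm1 each time), 4 with DESeq2 (adding Tnni2 and Tpm2), and 1 to 3 when a mouse was left out. Between ketone ester plus semaglutide and semaglutide the count was 5. It was 1 (Tpm1) under quantile normalization and with only the 2 compared groups, and 1 to 5 when a mouse was left out, with 1 in the fits without ketone ester mouse 21 or mouse 22. The third comparison had 0 under all settings. Of the single-gene values, 599 kept direction and side of the threshold, 36 lost their call, 6 gained one and 19 changed sign. The cause was not tested.

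Sign changes in ketone ester plus semaglutide against semaglutide were -0.20 (Tnni1), -0.043 (Tnnc1) and -0.15 (Tpm3) with equal totals, -0.019 for Tnni2 under quantile normalization and 0.0087 for Tnnt2 with a weight per mouse. With a mouse left out, these values ran from -0.15 to 0.33 (Tnni1), -0.042 to 0.48 (Tnnc1), -0.10 to 0.36 (Tpm3) and -0.26 to 0.018 (Tnnt2). Quantile normalization also turned Tnnt3 between semaglutide and vehicle (0.018) and Tnni2 between ketone ester plus semaglutide and vehicle (-0.095). In that last comparison Tnni1 ran from -0.63 to 0.032 and Tnnt1 from -0.51 to 0.17 with a mouse left out.

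The number of all genes called was 3084, 2262 and 29 in the 3 comparisons. It was 4847, 4279 and 205 with a weight per mouse, 4198 in the second with equal totals, 751 in the second with only those groups, and in the third 5 with no filter, 45 with an intensity trend (chosen after seeing the data) or with edgeR, 172 with DESeq2 and 697 with the analysis of variance and Tukey comparisons, which adjusts for no other genes. Leaving out a mouse gave 2065 to 4450 (highest without semaglutide mouse 13), 861 to 3959 (861 and 971 without ketone ester mice 22 and 21, 1500 without semaglutide mouse 17 and 3959 without mouse 13) and 1 to 77 (1 without ketone ester mouse 21 or 22, 77 without semaglutide mouse 13). The 4 slow members had a residual SD of at least 0.57 on the log2 scale, above that of the other 6. No paired analysis was possible because the labels number the mice differently in each group.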
